A study of Mus musculus with 16 samples.

Results

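The insulin-like growth factor (IGF) genes examined here were the 2 ligands Igf1 and Igf2, the type 1 receptor Igf1r and the 7 binding protein genes Igfbp1 to Igfbp7. These 10 genes were found by symbol among the 23996 genes of each of 3 RNA-Seq tables, 1 per cell type. The mouse cells were C57BL/6 embryonic fibroblasts (MEFs) of embryonic day 13.5, purified hepatocytes of mice labelled as 6 weeks old, and embryonic stem (ES) cells derived from the inner cell mass. All cells carried loxP sites around the first exon of both Ssu72 alleles (Ssu72 f/f), including those that the labels call WT. The control groups were infected with a luciferase adenovirus (Ad-Luc) and the Ssu72 KO groups with a Cre recombinase adenovirus (Ad-Cre), which deletes the exon in culture. A peptide that aids adenoviral entry was added to every group. The 16 samples were divided into 3 for each MEF group, 3 for each hepatocyte group and 2 for each ES group. The study's methods call samples and experiments independent, without saying whether that means separate animals or cultures. The comparison of Ad-Cre with Ad-Luc cells asked how loss of Ssu72, which dephosphorylates the C-terminal tail of RNA polymerase II, affected transcript levels in each cell type.

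IGF-I and IGF-II are secreted growth factors that bind the type 1 IGF receptor, a tyrosine kinase that signals through insulin receptor substrates to the PI3K-AKT and MAPK pathways. In serum and tissue fluid most IGF is held by binding proteins, which lengthen its lifetime, limit its access to the receptor or carry it to the cell surface, and proteases that cut the binding proteins release it. The liver is the main source of circulating IGF-I and of the insulin-suppressed binding protein IGFBP-1, whereas fibroblasts of the embryo make IGF-II from an imprinted gene.

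The files used give a single value per gene and group, in fragments per kilobase of transcript scaled to the mapped fragments of the library (FPKM), pooled by the authors over the samples of that group. No value per sample was used, so the spread between samples and the read depth are unknown, no standard deviation or p-value is given, and every ratio below is a description without a replicate check. A gene was counted as higher or lower when the mean of both groups reached 1 FPKM and the groups differed by more than 1.5-fold, which is 0.58 on the log2 scale. The limit of 1.5-fold is that of the study's results section, and its methods name a 2-fold limit, past which no member of at least 1 FPKM lay in any cell type. FPKM takes account of gene length, so levels can be set side by side between genes of a table. The 3 tables were normalised separately, and levels set across cell types below carry that limit. The Ad-Luc libraries of the ES table carry the letters FS in the file where the Ad-Cre libraries carry ES, and they were taken as the ES control.

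The values of Ssu72 matched the labels of all 6 groups. Ssu72 lies on chromosome 4 of mm10 (chr4:155704815-155733873) and was 22.7 FPKM in Ad-Luc and 3.69 FPKM in Ad-Cre MEFs, 26.0 and 5.12 FPKM in the hepatocyte groups, and 99.2 and 44.7 FPKM in the ES groups. The Ad-Cre value was thus 16.3%, 19.7% and 45.1% of the control, a smaller loss in ES cells than in the other cells. All 10 fibroblast markers examined had a mean of at least 1 FPKM in MEFs, all 10 hepatocyte markers in hepatocytes and all 10 pluripotency markers in ES cells. That level was also reached by 5 fibroblast markers in hepatocytes and 5 in ES cells. It was reached by 2 hepatocyte markers in MEFs and 1 in ES cells, and by 1 pluripotency marker in MEFs and 2 in hepatocytes. Because the mean covers both groups, a marker could pass through 1 group alone. The hepatocyte markers counted in MEFs were Trf and Asgr1, and Asgr1 was 0.2575 FPKM in Ad-Luc and 4.52 FPKM in Ad-Cre cells. Alb, at 1.26 and 0.421 FPKM, was not counted there. These counts do not show how pure the cells were. The median log2 ratio of the cytosolic ribosomal protein genes was 0.27 for MEFs, -0.07 for hepatocytes and 0.21 for ES cells, against 0.03, 0.02 and 0.01 for all genes of at least 1 FPKM.

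Igfbp1, Igfbp3, Igfbp4 and Igfbp5 were the binding protein genes that differed by more than 1.5-fold in some cell type. The stretch of 250 bases before the RefSeq start site of each is printed here for reference. It is the same in every cell type, and no link between these letters and the expression values was tested. The sequences are from RefSeq (GRCm38.p6), run 5′ to 3′ on the strand of the gene and end at the base before the start. Capitals mark a match, on either strand, to 1 of 5 motifs: the TATA box TATAAA, the Sp1 box GGGCGG, the AP-1 site TGANTCA, the FOXO site GTAAACA and the insulin response half-site CAAAACAA. Igfbp1 and Igfbp3 lie tail to tail on chromosome 11, on the plus and minus strand, with 3545 bp between their deposited loci. The windows are chr11:7197537-7197786 (plus strand) for Igfbp1, chr11:7213924-7214173 (minus strand) for Igfbp3, chr11:99040994-99041243 (plus strand) for Igfbp4 and chr1:72874866-72875115 (minus strand) for Igfbp5.
Igfbp1: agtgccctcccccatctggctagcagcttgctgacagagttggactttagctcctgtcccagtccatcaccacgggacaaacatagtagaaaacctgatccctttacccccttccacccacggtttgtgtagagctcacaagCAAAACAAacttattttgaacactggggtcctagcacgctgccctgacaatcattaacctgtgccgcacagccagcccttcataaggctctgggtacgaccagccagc
Igfbp3: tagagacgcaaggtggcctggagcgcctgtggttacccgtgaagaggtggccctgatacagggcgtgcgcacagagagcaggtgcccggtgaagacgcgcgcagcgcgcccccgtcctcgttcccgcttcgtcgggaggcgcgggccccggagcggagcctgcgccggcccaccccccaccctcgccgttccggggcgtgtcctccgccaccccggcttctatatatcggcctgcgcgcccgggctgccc
Igfbp4: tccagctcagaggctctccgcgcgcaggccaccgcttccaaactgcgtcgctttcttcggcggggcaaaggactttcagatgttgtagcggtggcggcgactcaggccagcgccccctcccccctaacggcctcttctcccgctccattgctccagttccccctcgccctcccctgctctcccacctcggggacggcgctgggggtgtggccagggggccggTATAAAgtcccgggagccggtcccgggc
Igfbp5: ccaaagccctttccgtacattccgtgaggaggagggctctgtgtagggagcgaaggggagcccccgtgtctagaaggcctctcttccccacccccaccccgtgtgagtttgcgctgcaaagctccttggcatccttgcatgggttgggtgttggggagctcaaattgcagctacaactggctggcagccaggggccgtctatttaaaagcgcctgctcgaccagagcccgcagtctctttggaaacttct

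Igfbp1, the binding protein gene that insulin switches off in liver, held a single CAAAACAA from 108 to 101 bases before its start, and these letters occurred in 2.21% of 32851 RefSeq windows of the same length. Igfbp4 held a TATAAA from 28 to 23 bases before its start, which 12.4% of windows contained somewhere. Igfbp6 held the same letters on the other strand from 148 to 143 bases before its start, and no matches of different motifs overlapped. The windows of Igfbp3 and Igfbp5 had no match to any of the 5 motifs, although their base composition differed, with a GC content of 73.2% for Igfbp3 and 58.8% for Igfbp5. The Sp1 box, present in 32.7% of windows, was found 4 times before Igfbp7, 3 times before Igfbp2 and 2 times before Igf1r. A match to TGANTCA (6.75% of windows), with the letters TGAATCA, stood before Igf1, and no member window searched held GTAAACA (3.17% of windows). The RefSeq start sites of Igf1 and Igf2 lie 2055 and 3540 bp from the edge of their deposited loci, and their windows are not printed. All 10 members had a window, of which only the nearest to the deposited locus was searched where there were several (4 for Igf2 and 2 for Igfbp2), and a match or its absence describes these letters only.

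In control cells, each cell type had its own set of IGF transcripts. MEFs expressed both ligands, the receptor and 6 of the 7 binding proteins. Hepatocytes expressed Igf1 and every binding protein but Igfbp5, with Igfbp7 and Igfbp1 at the head, and ES cells expressed Igf2, Igf1r and mainly Igfbp2. By the Ad-Luc value, MEFs had the highest level of 9 of the 10 genes and hepatocytes that of Igfbp1. With 1 value per group, whether neighbours in these orders differ beyond their spread is unknown.

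Igf2, the main fetal IGF ligand (chr7:142650768-142670356), was at 848 FPKM in Ad-Luc MEFs, above 99.6% of genes in that table, at 27.7 FPKM in ES cells and at 0.171 FPKM in hepatocytes. Igf1, the ligand that growth hormone induces (chr10:87859056-87937047), was at 7.97 FPKM in MEFs, 6.25 FPKM in hepatocytes and 0.0272 FPKM in ES cells. The order of MEFs and hepatocytes for Igf1 turned with the Ad-Cre values, where hepatocytes were at 5.78 and MEFs at 4.84 FPKM. It also turned when levels were divided by those of the ribosomal protein genes. Igf1r, which encodes the receptor for both ligands (chr7:67952257-68233667), was at 23.8 FPKM in MEFs, 2.04 FPKM in ES cells and only 0.214 FPKM in hepatocytes, so the hepatocytes held more ligand than receptor transcript per length.

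Igfbp7, which binds insulin-like growth factors weakly and is found in the extracellular matrix, had the highest level of the family in MEFs, 1481 FPKM, and in hepatocytes, 255 FPKM, but was at 1.88 FPKM in ES cells. Its deposited locus (chr5:77310484-77408045) is merged with that of Polr2b on the other strand, whose values were far lower in MEFs (18.2 FPKM) and hepatocytes (26.5 FPKM) and higher in ES cells (76.1 FPKM). Igfbp2 (chr1:72824480-72852471), a binding protein of fetal tissues, was at 163 FPKM in MEFs and 137 FPKM in ES cells, a ratio of 1.19, and at 9.11 FPKM in hepatocytes. Igfbp1 (chr11:7197787-7202546) was at 218 FPKM in hepatocytes, at 0.0128 FPKM in MEFs and listed at 0 in ES cells. Igfbp5 (chr1:72858065-72874865), a binding protein of matrix and bone, was nearly as restricted, with 92.9 FPKM in MEFs, 0.0654 FPKM in ES cells and 0.0146 FPKM in hepatocytes.

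Igfbp3 (chr11:7206091-7213923), which encodes the main carrier of IGFs in serum, was at 302 FPKM in MEFs, 7.23 FPKM in hepatocytes and 5.91 FPKM in ES cells. Igfbp4 (chr11:99041260-99052643), an inhibitory binding protein that the protease PAPP-A cuts, was at 177, 86.9 and 3.26 FPKM in the same order. Igfbp6 (chr15:102144186-102149512), which prefers IGF-II, was at 42.0, 8.74 and 1.42 FPKM. These 3 genes shared the order MEFs, hepatocytes, ES cells, and the gap between the last pair was narrow for Igfbp3 and wide for Igfbp4.

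**Figure D1:**
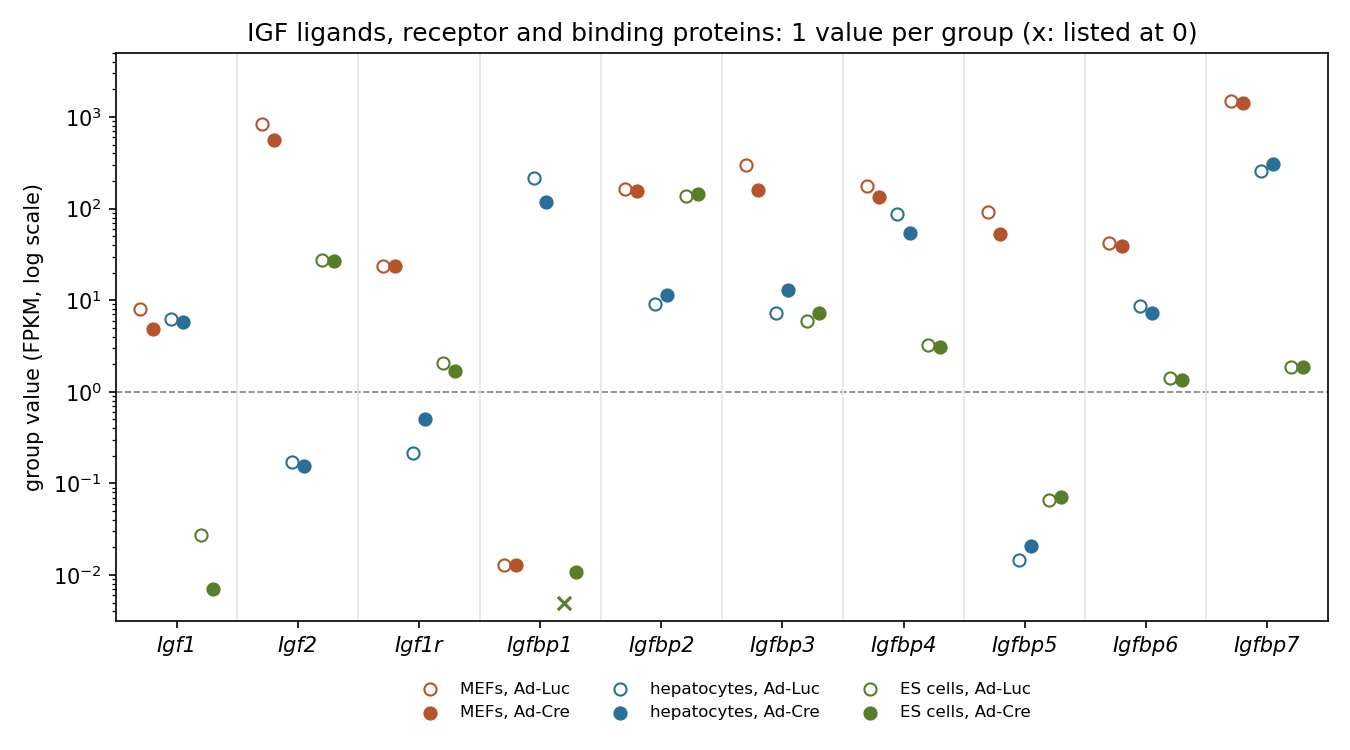
Group value of each member in FPKM on a log axis, with open circles for Ad-Luc and filled circles for Ad-Cre in MEFs, hepatocytes and ES cells. Each circle is 1 value pooled over the samples of a group, the dashed line marks 1 FPKM and the cross marks a value listed at 0. Igfbp1 stands at 218 and 118 FPKM in hepatocytes and below 1 FPKM elsewhere, while Igfbp5 exceeds 1 FPKM only in MEFs.

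In MEFs, loss of Ssu72 went with lower levels of both ligands and of 2 binding proteins, while the receptor and the most abundant binding protein kept values close to the control. Of the 9 members of at least 1 FPKM, 4 were lower by more than 1.5-fold (Igf1, Igf2, Igfbp3 and Igfbp5) and 0 were higher, and all 9 had a log2 ratio below 0. Among all 12216 genes of at least 1 FPKM in MEFs, 8.58% were lower and 7.42% higher by the same rule. A log2 ratio below 0 was itself common, since that of Igf1r (-0.011) stood at percentile 44.9 of these genes. The median log2 ratio of the members was -0.40, against 0.03 for all genes.

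Igfbp3 had the largest difference of the members in MEFs. It was 302 FPKM in Ad-Luc and 161 FPKM in Ad-Cre cells, a log2 ratio of -0.91. Igfbp5 was 92.9 FPKM in Ad-Luc and 53.1 FPKM in Ad-Cre MEFs (log2 ratio -0.81). These ratios were lower than those of all but 3.77% and 4.72% of genes. Igf1 was 7.97 FPKM in the control and 4.84 FPKM after Ad-Cre (log2 ratio -0.72). Igf2 was 848 FPKM in the control and 562 FPKM after Ad-Cre (log2 ratio -0.59), which is 1.51-fold and only just past the limit. In absolute FPKM the difference of Igf2 was the largest of the family.

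Igfbp4 was next in MEFs and did not pass the limit, with 177 FPKM in Ad-Luc and 134 FPKM in Ad-Cre cells and a log2 ratio of -0.40. When the ratios were centred on the ribosomal protein genes, its log2 ratio was -0.66 and it counted as lower. The other 4 members of at least 1 FPKM moved little. Igf1r was 23.8 and 23.6 FPKM, Igfbp2 was 163 and 155 FPKM, Igfbp6 was 42.0 and 39.4 FPKM, and Igfbp7 was 1481 and 1426 FPKM in Ad-Luc and Ad-Cre MEFs. Igfbp1 was 0.0128 FPKM in both groups, and no ratio was read from it.

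Other transcripts of the fibroblast programme differed beside these members. The summed level of the 10 MEF markers, which include collagen genes and the proteoglycan genes Dcn and Lum, was 15641 FPKM in Ad-Luc and 8779 FPKM in Ad-Cre MEFs, and 8 of the 10 were lower by more than 1.5-fold. For 5 mesothelial markers the sum was 26.8 and 8.36 FPKM, with all 4 that reached a mean of 1 FPKM lower. The 8 stellate cell markers, which share Pdgfrb with the MEF list, summed to 700 and 425 FPKM, most of it Acta2 (516 and 318 FPKM). Of the 5 with a mean of at least 1 FPKM, 4 were lower by more than 1.5-fold. The 5 cholangiocyte markers summed to 5805 and 5719 FPKM, nearly all of it Spp1. The sums of the endothelial and macrophage lists were higher in Ad-Cre MEFs. The 8 endothelial markers summed to 7.21 and 17.3 FPKM. Most of this was Stab1 (2.504 and 8.63 FPKM) and Kdr (3.93 and 7.64 FPKM), the only 2 with a mean of at least 1 FPKM. Of those below that level, Pecam1, Cdh5, Lyve1 and Clec4g were higher, and Tek (0.470 and 0.317 FPKM) and Stab2 were lower. The 8 macrophage markers summed to 33.7 and 43.8 FPKM with none past 1.5-fold. The part of these shifts in the IGF values was not tested. In bulk RNA, fewer cells of a type and less RNA per cell cannot be told apart.

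In hepatocytes, the binding proteins differed in both directions. Of the 7 members of at least 1 FPKM, Igfbp1 and Igfbp4 were lower and Igfbp3 was higher by more than 1.5-fold, so 2 were lower and 1 was higher. The background was 5.69% lower and 5.70% higher among 11790 genes. The median log2 ratio of the 7 was -0.11, against 0.02 for all genes.

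Igfbp1 was 218 FPKM in Ad-Luc and 118 FPKM in Ad-Cre hepatocytes, a log2 ratio of -0.89 that was lower than in all but 2.88% of genes. Igfbp4 was 86.9 FPKM in the control and 54.5 FPKM after Ad-Cre (log2 ratio -0.67). Igfbp3 was 7.23 FPKM in the control and 13.04 FPKM after Ad-Cre (log2 ratio 0.85), a higher ratio than in 96.7% of genes. The tail-to-tail neighbours Igfbp1 and Igfbp3 therefore went opposite ways in the same cells. Igfbp3 itself was lower in Ad-Cre MEFs and higher in Ad-Cre hepatocytes, and the difference between these ratios was not tested because each rests on 1 value per group.

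The remaining members of at least 1 FPKM stayed within 1.5-fold in hepatocytes. Igfbp7 was 255 and 304 FPKM, Igfbp2 was 9.11 and 11.4 FPKM, Igfbp6 was 8.74 and 7.27 FPKM, and Igf1 was 6.25 and 5.78 FPKM, control first. Thus the Igf1 transcript was nearly level in these cultured hepatocytes (log2 ratio -0.11). The IGF-I that the liver supplies to the blood was not measured. Igf1r was 0.214 FPKM in the control and 0.504 FPKM after Ad-Cre, but it stayed below the level at which genes were counted. Igf2 was at 0.171 and 0.157 FPKM, and Igfbp5 was at 0.0146 and 0.0209 FPKM.

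Markers of hepatocytes and of other liver cells are set beside these values. The sum of 10 hepatocyte markers was 14733 FPKM in Ad-Luc and 11200 FPKM in Ad-Cre cells, and 7 of them were lower by more than 1.5-fold. The sum of 10 MEF markers was 620 and 983 FPKM, most of it Vim, and that of 8 endothelial markers was 19.1 and 28.6 FPKM. The 8 stellate cell markers summed to 2.11 and 3.82 FPKM, with Acta2, the only one with a mean of at least 1 FPKM, at 0.978 and 2.75 FPKM, and Lrat, which defines quiescent stellate cells, at 0.0155 and 0.0161 FPKM. The 5 cholangiocyte markers went different ways, with Spp1 at 264 and 165 FPKM, Krt19 at 11.3 and 33.2 FPKM, Krt7 at 0.528 and 1.59 FPKM and Sox9 at 8.17 and 8.09 FPKM, and their sum was 284 and 208 FPKM. The 8 macrophage markers summed to 12.0 and 9.88 FPKM, most of it Cd68 (10.5 and 7.92 FPKM), the only 1 with a mean of at least 1 FPKM. For the 5 mesothelial markers the sum was 1.65 and 3.40 FPKM, most of it Msln (1.48 and 3.25 FPKM), the only 1 with a mean of at least 1 FPKM. The part of these cells in the values of Igfbp3 or Igfbp1 was not tested.

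In ES cells, no member differed by more than 1.5-fold. Of 7 members of at least 1 FPKM, 0 were lower and 0 higher, where the background was 0.722% lower and 2.02% higher among 11909 genes. With so few genes past the limit, a count of 0 of 7 does not set the family apart from the rest. The median log2 ratio was -0.04, against 0.01 for all genes.

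The ligand of ES cells, Igf2, was 27.7 FPKM in Ad-Luc and 27.0 FPKM in Ad-Cre cells, and their main binding protein, Igfbp2, was 137 and 143 FPKM. Igfbp3 had the highest log2 ratio (0.30), with 5.91 and 7.30 FPKM, and Igf1r the lowest (-0.27), with 2.04 and 1.69 FPKM. Igfbp4 was 3.26 and 3.10 FPKM, Igfbp6 was 1.42 and 1.36 FPKM, and Igfbp7 was 1.88 and 1.87 FPKM. Igf1 (0.0272 and 0.00702 FPKM), Igfbp5 (0.0654 and 0.0711 FPKM) and Igfbp1 (listed at 0 and at 0.0107 FPKM) stayed far below 1 FPKM. The sum of the 10 pluripotency markers was 6729 and 6574 FPKM, with none past 1.5-fold.

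**Figure D2:**
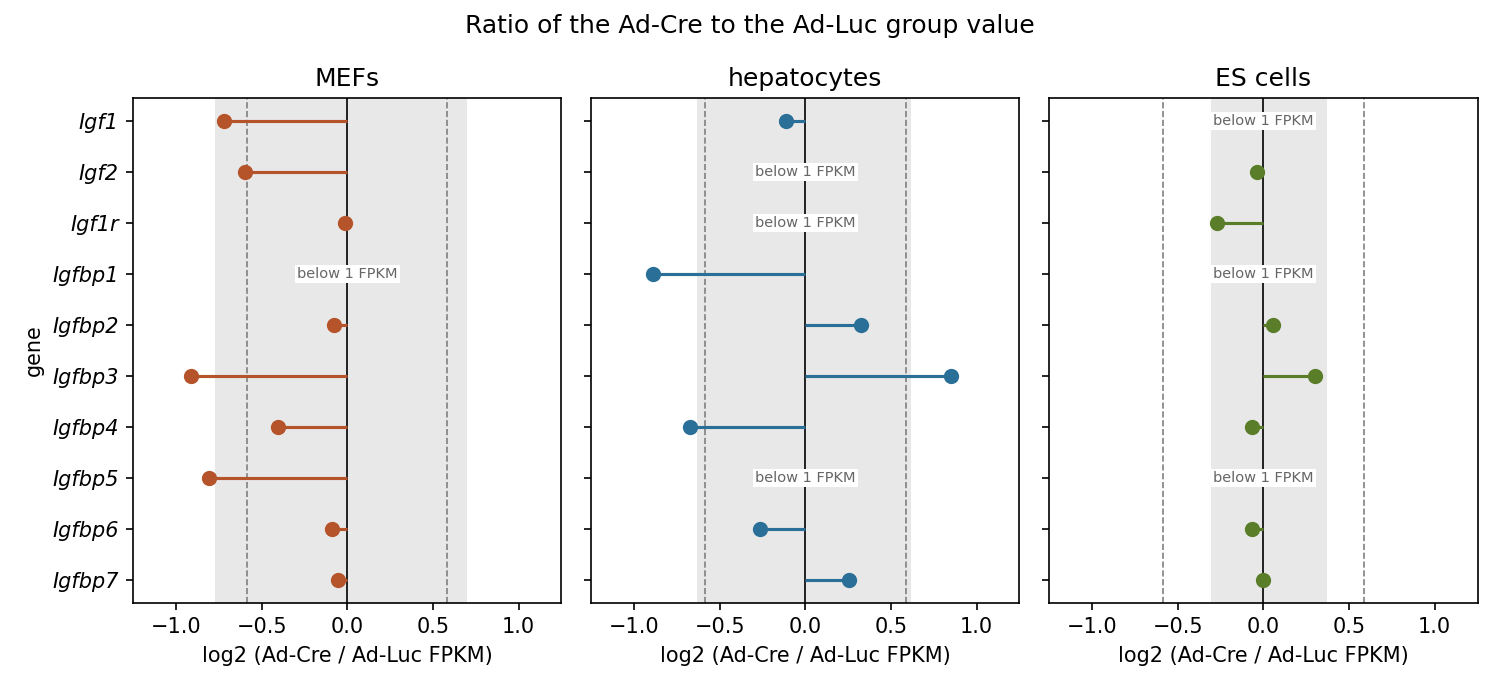
Log2 ratio of the Ad-Cre to the Ad-Luc value for each member in the 3 cell types. Dashed lines mark 1.5-fold, the grey band spans the 5th to 95th percentile of all genes of at least 1 FPKM, and members below 1 FPKM are named without a point. Igfbp3 lies at -0.91 in MEFs and 0.85 in hepatocytes, and all ES points lie within 1.5-fold.

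Taking the binding proteins as a pool shows where the differences weighed. In MEFs the 7 genes summed to 2258 FPKM in Ad-Luc and 1968 FPKM in Ad-Cre cells, a log2 ratio of -0.20, but Igfbp7 alone made up 65.6% of the control sum and 72.4% after Ad-Cre. Without Igfbp7, which has the lowest affinity for IGFs, the sum was 777 and 542 FPKM (log2 ratio -0.52). The 2 ligands together were 856 and 566 FPKM (log2 ratio -0.60), so ligand and binding protein transcripts were both lower. Igfbp3 went from 13.4% to 8.17% of the whole pool.

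In hepatocytes the pool was 585 FPKM in Ad-Luc and 508 FPKM in Ad-Cre cells (log2 ratio -0.20). The binding proteins with the largest negative differences in FPKM were Igfbp1 and Igfbp4 here, and Igfbp3, Igfbp7, Igfbp4 and Igfbp5 in MEFs. Igfbp1 made up 37.2% of the hepatocyte pool in the control and 23.2% after Ad-Cre, while the share of Igfbp7 was 43.6% and 59.8%. Without Igfbp7 the pool was 330 and 204 FPKM (log2 ratio -0.69). In ES cells the pool was 150 and 157 FPKM (log2 ratio 0.06), and Igfbp2 held 91.6% and 91.2% of it.

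**Figure D3:**
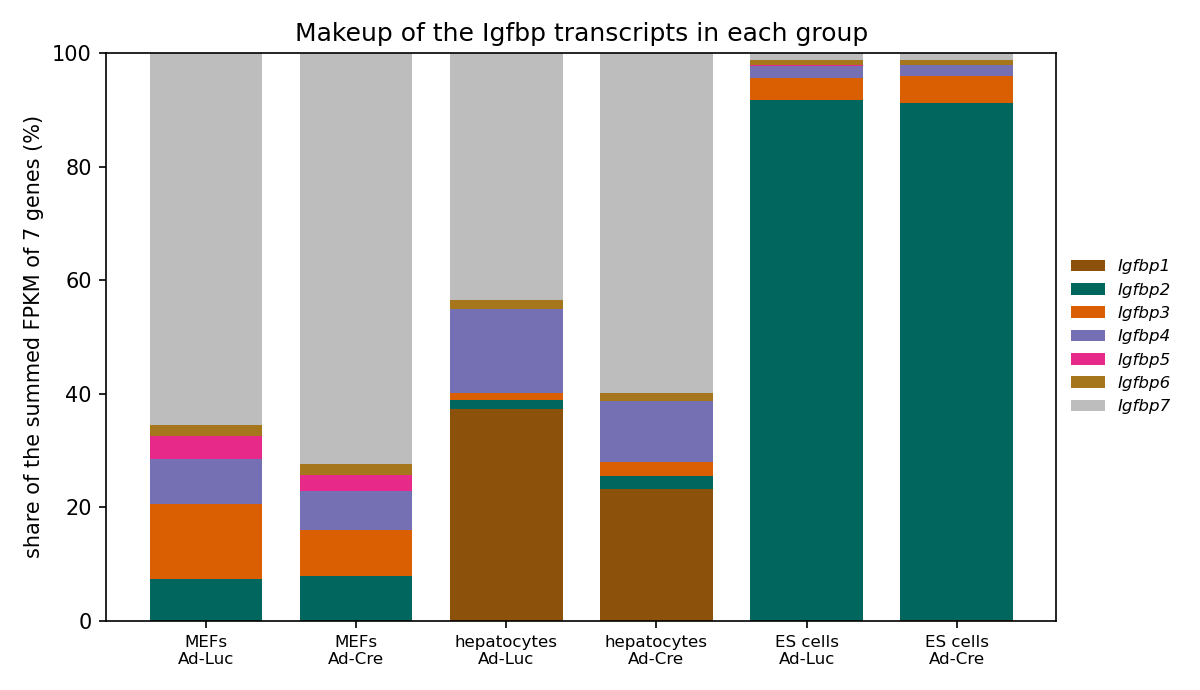
Share of each binding protein gene in the summed FPKM of all 7, as stacked bars from 0 to 100% for the 6 groups, each bar from 1 pooled value per gene. Igfbp7 takes 43.6% of the bar in Ad-Luc and 59.8% in Ad-Cre hepatocytes, and Igfbp2 takes over 90% of both ES bars.

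Upstream and downstream of the IGFs, 40 other genes of the pathway in 5 lists were examined. In MEFs, 35 of them reached 1 FPKM, 1 was higher and 4 were lower by more than 1.5-fold, and their median log2 ratio was -0.21. Centred on the ribosomal protein genes, 0 of them were higher and 12 lower, and at 2-fold 0 were higher and 2 lower. Among all 12216 genes, 458 were higher and 2222 lower with that centring, and 335 higher and 377 lower at 2-fold. In hepatocytes, 31 reached 1 FPKM, with 3 higher, 2 lower and a median of 0.01. In ES cells, 31 reached 1 FPKM, with 0 past the limit and a median of -0.11. The counts at 1.5-fold without centring are read against the backgrounds given above for each cell type.

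Among the proteases that cut binding proteins and their inhibitors, Pappa and Adam12 were lower in MEFs. Pappa, which encodes the protease of IGFBP-4 and IGFBP-5, was 28.8 FPKM in Ad-Luc and 13.9 FPKM in Ad-Cre MEFs (log2 ratio -1.05). Adam12, whose product can cut IGFBP-3 and IGFBP-5, was 30.3 and 18.96 FPKM (log2 ratio -0.68). Htra1, a secreted serine protease gene, was 170 and 147 FPKM in MEFs, but in hepatocytes it was 1.62 FPKM in Ad-Luc and 7.76 FPKM in Ad-Cre cells (log2 ratio 2.26). That was the largest ratio among the pathway genes counted in hepatocytes, from a low control level.

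In the growth hormone axis, Stat5a, a transcription factor activated by the growth hormone receptor, was 7.75 and 5.07 FPKM in MEFs (log2 ratio -0.61). Ghr, the receptor gene, was 36.8 and 26.7 FPKM in MEFs and 17.8 and 13.5 FPKM in hepatocytes, within 1.5-fold in both. Igfals, which encodes the acid-labile subunit of the serum complex with IGFBP-3, was 14.6 FPKM in Ad-Luc and 9.39 FPKM in Ad-Cre hepatocytes (log2 ratio -0.64). Its partner transcript Igfbp3 was the member that was higher in the same cells.

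Of the other receptor genes, Igf2r and Insr reached 1 FPKM and stayed within 1.5-fold in the 3 cell types, and Insrr was below 0.1 FPKM in every group. Igf2r, which removes IGF-II from the cell surface, had 165 and 147 FPKM in MEFs, 42.4 and 50.8 FPKM in hepatocytes, then 14.5 and 13.5 FPKM in ES cells. Insr, the insulin receptor gene, was 33.3 and 28.5 FPKM in hepatocytes, so these cells held far more Insr than Igf1r transcript.

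Among the receptor substrates, Irs1 was higher in Ad-Cre MEFs, with 7.92 and 12.2 FPKM (log2 ratio 0.63), and lower in Ad-Cre hepatocytes, with 1.93 and 1.20 FPKM (log2 ratio -0.68). Irs2, the other main insulin receptor substrate gene of liver, was 2.57 and 4.43 FPKM in hepatocytes (log2 ratio 0.78). Grb10, an adaptor gene whose product restrains insulin and IGF receptors, was 9.61 and 15.6 FPKM there (log2 ratio 0.70). In MEFs Grb10 was 95.9 and 89.0 FPKM, and in ES cells 85.7 and 69.5 FPKM.

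H19, the non-coding RNA gene that shares the imprinted region of Igf2, was 350 FPKM in Ad-Luc and 142 FPKM in Ad-Cre MEFs (log2 ratio -1.30), a larger ratio than that of Igf2, though Igf2 had the larger difference in FPKM. In ES cells H19 was 25.7 and 28.4 FPKM. The Igf2 mRNA binding protein gene Igf2bp2 was 36.6 and 34.5 FPKM in MEFs, and Igf2bp1 was 60.2 and 56.9 FPKM in ES cells.

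**Figure D4:**
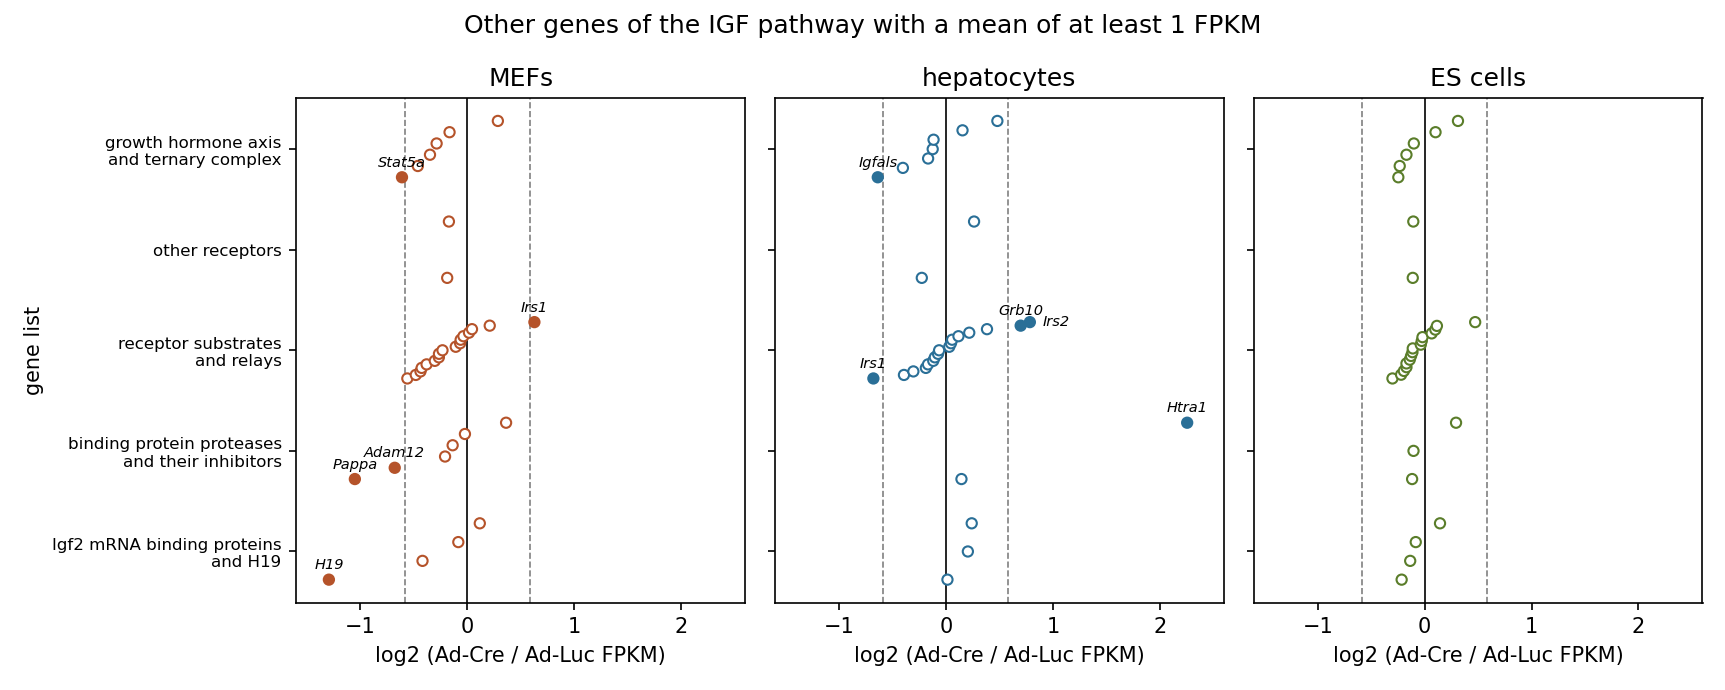
Log2 ratio of the Ad-Cre to the Ad-Luc value for the other pathway genes of at least 1 FPKM, by list and cell type, 1 point per gene. Filled, named points lie past 1.5-fold (dashed lines). MEFs have 4 of them to the left and 1 to the right, hepatocytes 2 and 3, and ES cells none.

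The chromosomal neighbours within 25 kb were looked up for each member. Igfbp2 and Igfbp5 lie tail to tail on chromosome 1 with 5594 bp between them, and in MEFs Igfbp5 was lower while Igfbp2 was 163 and 155 FPKM. The Igf2 locus is deposited together with its antisense partner Igf2os, which was 1.98 and 1.87 FPKM in MEFs, and Ins2, 8300 bp away, was listed at 0 in every group. The library kit kept the strand, but whether counting used it is not given in the sources used here, so reads of Igf2 and Igf2os may not be told apart. Pgpep1l, on the other strand 2941 bp past the end of Igf1r, was 1.71 and 4.41 FPKM in MEFs (log2 ratio 1.36) and 0.503 and 2.01 FPKM in hepatocytes (log2 ratio 2.00). Soat2, 1063 bp past Igfbp6 on the same strand, was 2.58 and 3.89 FPKM in MEFs (log2 ratio 0.60), where Igfbp6 was nearly level. Top2a, a proliferation gene 17071 bp from Igfbp4 on the other strand, was 29.8 and 18.5 FPKM in hepatocytes (log2 ratio -0.68), beside -0.67 for Igfbp4, and 18.4 and 15.8 FPKM in MEFs.

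The genes whose pattern over the 6 groups was most like each member were found by the Euclidean distance between 6 values of log2(FPKM + 1), each gene centred on its own mean. The 6 values come from 3 cell types and are no independent points, and the distances are given as a description. Nearest to Igfbp5 was the chemokine gene Ccl11 (distance 0.225), at 76.4 and 46.1 FPKM in Ad-Luc and Ad-Cre MEFs and listed at 0 in the other 4 groups, followed by the collagen gene Col6a3 (0.373). Nearest to Igfbp1 was Ugt2b5 (distance 0.127), at 234 and 127 FPKM in hepatocytes, a member of a family of near-identical paralogues whose reads may be shared, followed by Azgp1 (0.218) and Cpb2 (0.226). Igf2 was nearest to Fstl1 (0.561), at 1021 and 691 FPKM in MEFs. Igf1 was nearest to Angptl4 (0.134), but their levels in ES cells were far apart. There Angptl4 was at 14.4 and 14.5 FPKM and Igf1 at 0.0272 and 0.00702 FPKM. Adding 1 FPKM narrows the ratios of genes at low levels, so a small distance need not mean like ratios. For Igfbp3 the nearest were Gpr124 and Leprel2 (0.660 each), with Gpr124 at 2.65 and 5.95 FPKM in hepatocytes but 111 and 107 FPKM in MEFs, where Igfbp3 was 302 and 161 FPKM. Igfbp7 had no close match, with App nearest at 1.59.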

How the data were processed

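RNA-Seq of 16 samples in 6 groups was analysed from 3 deposited tables, 1 per cell type, which give per gene and group a pooled FPKM that the authors made with Cuffdiff. Cuffdiff 2.2.0, TopHat2 2.0.13 and the mm10 build are named in the submitters' processing notes, as are edgeR, DESeq and CASAVA. The study's methods describe stranded total RNA libraries. The tables also hold the authors' own fold changes, test statistics, p-values and q-values, which were not used, and 9 shorter tables cut by those columns were left out. No per-sample values were used, so depth and precision are unknown, and FPKM of a group near 0 may be a failed estimate.

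Ratios of the Ad-Cre to the Ad-Luc FPKM were recomputed without a pseudocount for genes with a mean of at least 1 FPKM, and a gene was counted past 1.5-fold, the limit of the study's results section (its methods name 2-fold, an alternative here). This is no test. Alternatives were no minimum level, 10 FPKM, the authors' status OK, 2-fold, a pseudocount of 1 FPKM, and ratios centred on 80 ribosomal protein genes or the median gene. For levels, the Ad-Cre values and both scalings were tried.

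Members and lists were chosen with earlier results of these data known, and the 5 promoter motifs after the values were seen. All 10 members are named, with pathway genes past 1.5-fold (up to 4 per list and direction, otherwise the 2 of highest mean level), neighbours within 25 kb and the 3 genes of nearest pattern, of which some are described. Markers are given as list sums, by name where they define a cell type or move beside a member. Deposited starts were raised by 1 base. The 5′ edge of the deposited locus then fell on the RefSeq start site for Igf1r, Igfbp1, Igfbp2, Igfbp3, Igfbp5, Igfbp6 and Igfbp7. It lay 16 bp from that site for Igfbp4 and further for Igf1 and Igf2. The deposited starts differ from those of GENCODE genes, so the printed loci are not annotated gene boundaries. Promoter windows came from RefSeq GRCm38.p6. Ratios were computed in Python 3.11.15 with pandas 2.3.3 and numpy 2.4.6, and the code was tested on simulated data.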

Additional observations from a re-analysis of the deposited data

How the results depend on the processing

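No paired analysis was possible because each group has 1 pooled value, and for the same reason no sample could be left out in turn. Of the members' log2 ratios under the alternatives, 84 kept their side of the limit, 7 fell inside the limit at 2-fold (Igf1, Igf2, Igfbp3 and Igfbp5 in MEFs, and Igfbp1, Igfbp3 and Igfbp4 in hepatocytes) and 1, Igfbp4 in MEFs, passed it with ribosomal centring (-0.66). The sign changed for 1 ratio, that of Igfbp2 in ES cells, which was 0.06 as deposited and -0.15 with ribosomal centring. For the member with the highest level by cell type, 28 values kept the order, and Igf1 in MEFs over hepatocytes turned to a ratio of 0.847 with ribosomal scaling and 0.837 with the Ad-Cre values. The cause was not tested for any of these.

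At 2-fold, 0 members were lower in MEFs and 0 lower or higher in hepatocytes. Without a minimum level, or with the authors' status, 2 members were higher in hepatocytes, the added one being Igf1r, and without a minimum level 1 was lower in ES cells, Igf1, from values near 0. For the other pathway genes in MEFs, 2 were higher without a minimum level and 0 with 2-fold, the pseudocount or ribosomal centring, while 2 were lower with 2-fold and 12 with ribosomal centring. In hepatocytes 5 were higher and 4 lower without a minimum level, 1 higher and 1 lower at 10 FPKM, 1 higher and 0 lower at 2-fold, and 1 lower with the pseudocount or ribosomal centring. In ES cells 1 was higher without a minimum level.

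Over all genes, 906 were higher and 1048 lower in MEFs. These counts were 2858 and 2203 without a minimum level, 306 and 500 at 10 FPKM, 335 and 377 at 2-fold, 458 and 2222 with ribosomal centring, and 1384 higher with the authors' status. Hepatocytes, with 672 and 671, had 2489 and 1450 without a minimum level, 198 and 296 at 10 FPKM, 288 and 267 at 2-fold, and 1088 higher with the status. ES cells, with 241 and 86, had 1555 and 851 without a minimum level, 45 and 30 at 10 FPKM, 498 and 166 with the status, 102 and 32 at 2-fold, 140 and 46 with the pseudocount, and 143 and 313 with ribosomal centring.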
